A study of Mus musculus with 17 samples.

Results

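The HoxB cluster is the row of Hox genes on mouse chromosome 11 that runs from Hoxb13 to Hoxb1, and its chromatin loops were followed in embryoid bodies (EBs) after retinoic acid (RA). A loop belonged to the cluster when one of its anchors overlapped chr11:96055630-96229570 of the mm9 build, the 174 kb from the start of Hoxb13 to the end of Hoxb1. This rule gave 1491 loops of 1211657 in the series, of which 154 had both ends in the cluster and 1337 had 1 end in flanking DNA. The 10 genes were Hoxb1 to Hoxb9 and Hoxb13, and an anchor was assigned to a gene when it lay within 5 kb of one of its transcription start sites (TSSs).

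The study built a method that separates bulk data into cell subpopulations, with the bulk libraries as the mixture to be separated and the sorted ones as a measured profile to set beside that inferred for 1 subpopulation. H3K27ac HiChIP was used, which ligates DNA ends that lie together in the nucleus and then enriches, with an antibody, pieces that carry H3K27 acetylation, which marks active regulatory DNA. All libraries came from the mouse embryonic stem cell (mESC) line R1, differentiated as hanging drops and kept with 0.5 µM RA up to day 4. The 12 libraries labelled bulk held unsorted EB cells. The 5 libraries labelled cluster2 held, by the methods of the study and not by the labels, cells sorted as positive for both EpCAM and CD38, and are called double positive here. Untreated cells and other days were not analysed here, so no value below is a response to RA. EBs hold several lineages, and a lower value in a sorted fraction can come from fewer cells with a loop or from fewer loops in each cell, which cannot be told apart. The methods describe the sorting as 5 independent experiments but do not tie each library to one, and whether the bulk libraries came from separate cultures is not given in the sources used here, so the p-values may measure only technical spread between libraries.

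Hox genes encode homeodomain transcription factors that set position along the body axis. Within a cluster their order on the chromosome follows the order in which they come on, with Hoxb1 at the early, anterior end and the high-numbered genes at the late, posterior end. Retinoic acid, acting through its nuclear receptors, is a known activator of the Hoxb1 end in differentiating stem cells and in the hindbrain. HOX proteins bind DNA together with TALE cofactors of the PBX and MEIS families, and Polycomb and Trithorax complexes are known to keep the clusters silent or active.

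Sequences are shown first for the elements that the biology of the cluster points to. A retinoic acid response element is a direct repeat of a 6-base unit (AGGTCA or a near match) with 1, 2 or 5 bases between the repeats. Both strands of the 29 cluster anchors were searched, and 4 anchors held 1 such repeat. In all 216081 anchors of the series the shares were 4.61% for the 1-base, 4.87% for the 2-base and 3.31% for the 5-base repeat, so finding 1, 2 and 1 of 29 anchors is near the background. The 4 repeats are printed with 24 bases on each side and the units in capitals, read on the strand of the match (mm9):
2-base repeat near Hoxb13, chr11:96064267-96064328, plus strand: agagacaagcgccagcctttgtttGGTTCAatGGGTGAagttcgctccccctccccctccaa
2-base repeat in the Hoxb9 anchor, chr11:96134391-96134452, minus strand: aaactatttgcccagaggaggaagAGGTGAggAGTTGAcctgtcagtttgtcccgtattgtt
5-base repeat inside Hoxb3, chr11:96202526-96202590, plus strand: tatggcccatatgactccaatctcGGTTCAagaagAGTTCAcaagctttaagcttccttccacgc
1-base repeat inside Hoxb3, chr11:96206136-96206196, minus strand: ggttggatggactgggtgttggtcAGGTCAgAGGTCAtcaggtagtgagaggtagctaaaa
A match of letters is a description and not a bound site.

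Promoter sequences of 3 members, Hoxb1, Hoxb4 and Hoxb8, were in the RefSeq promoter table (GRCm38.p6, whose coordinates are not those of mm9), and the other 7 members had no entry. They are shown because the promoter anchors of all 3 were called lower in the double positive libraries with the TMM scaling used below. Capitals mark TGATNNAT, a form of the joint HOX and PBX site, searched on both strands:
Hoxb1, GRCm38.p6 chr11:96365508-96365807, plus strand: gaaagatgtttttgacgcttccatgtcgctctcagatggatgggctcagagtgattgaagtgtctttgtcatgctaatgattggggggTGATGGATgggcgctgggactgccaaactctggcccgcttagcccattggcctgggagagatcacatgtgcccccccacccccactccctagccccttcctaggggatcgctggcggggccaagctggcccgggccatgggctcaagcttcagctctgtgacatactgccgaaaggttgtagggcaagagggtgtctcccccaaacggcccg
Hoxb4, GRCm38.p6 chr11:96318017-96318316, plus strand: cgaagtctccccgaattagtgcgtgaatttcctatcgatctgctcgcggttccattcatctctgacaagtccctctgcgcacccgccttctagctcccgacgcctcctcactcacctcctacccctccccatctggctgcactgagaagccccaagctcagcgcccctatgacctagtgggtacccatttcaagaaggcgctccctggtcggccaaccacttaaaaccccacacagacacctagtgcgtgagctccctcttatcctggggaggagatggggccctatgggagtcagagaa
Hoxb8, GRCm38.p6 chr11:96281655-96281954, plus strand: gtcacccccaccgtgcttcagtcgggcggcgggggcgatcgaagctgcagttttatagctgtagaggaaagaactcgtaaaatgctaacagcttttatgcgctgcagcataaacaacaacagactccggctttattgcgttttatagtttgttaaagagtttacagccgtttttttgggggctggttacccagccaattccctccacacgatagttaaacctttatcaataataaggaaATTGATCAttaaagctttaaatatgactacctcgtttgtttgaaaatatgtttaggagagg
Hoxb1 and Hoxb8 held 1 match each and Hoxb4 held 0, against 8.85% of the 32851 promoters in that table with at least 1. No direct repeat of the kind above lay in these 3 promoters, so the motifs did not overlap.

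Before the values, a fact about the anchors has to be stated. The bulk loops used 216073 joined anchors and the double positive loops only 15082, of which 15074 were in both sets. Of the 29 anchors that overlap the HoxB cluster, 13 were in both sets (called shared here) and 16 were in bulk loops alone. Shared loops, whose ends both lie on shared anchors, held 12.3% of all bulk read pairs and 99.99% of the double positive ones. Each comparison was therefore also made on shared loops alone, with CPM then taken over the read pairs of those loops. The sources used here do not say which samples gave each anchor set, and how far the sets themselves make the differences below was not tested.

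Levels are given as CPM, the read pairs in HoxB loops per 1000000 read pairs in all loops of the library. Library totals ran from 65178 to 241202 read pairs in bulk and from 50508 to 118179 in double positive cells. The cluster held between 177 and 1028 read pairs in a bulk library and between 33 and 108 in a double positive one, so counting error was large in the latter.

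HoxB loops were weaker in the double positive cells. Over all HoxB loops the bulk libraries held from 1741 to 4262 CPM with a median of 2560 CPM. The double positive libraries held 888, 838, 921, 653 and 1043 CPM in replicates 1 to 5. Every double positive library lay below every bulk library, and the means were 2899 ± 925 CPM (SD, n = 12) and 869 ± 142 CPM (SD, n = 5), a 3.34-fold difference (two-sided exact permutation test with 6188 arrangements, p = 0.000808, adjusted p = 0.00108 over 8 measures). The smallest p this test can give is 0.000162. On shared loops the difference was larger, with means of 12512 and 869 CPM (exact permutation p = 0.000162).

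Bulk replicates 1 to 4 stood apart from the other bulk libraries. They held 4210, 4262, 3799 and 4065 CPM, and replicates 5 to 12 held from 1741 to 2761 CPM. Without these 4 libraries the bulk mean was 2307 CPM and the difference from the double positive libraries was still past the threshold (exact permutation p = 0.000777).

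Loops with both ends in the cluster and loops out of it were both lower. Inside the cluster the bulk libraries held from 388 to 1183 CPM with a median of 668 CPM, and the double positive libraries held 271, 186, 255, 139 and 425 CPM. The highest double positive library, replicate 5, lay above the lowest bulk library, and the other 4 lay below all of them. The means differed 3.01-fold (exact permutation test, adjusted p = 0.00240). To flanking DNA the bulk libraries held from 1353 to 3102 CPM with a median of 1884 CPM, and the double positive libraries held 618, 651, 666, 515 and 618 CPM. These did not overlap, and the means differed 3.47-fold (exact permutation test, adjusted p = 0.000517).

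The share of HoxB read pairs that stayed inside the cluster was 26.2% ± 3.29 (SD, n = 12) in bulk and 28.5% ± 7.86 (SD, n = 5) in double positive cells. This difference of 2.30 percentage points did not pass the test (exact permutation p = 0.412). It turned on the anchor set, since on shared loops the bulk share was 34.1% and the difference was -5.60 points (exact permutation p = 0.0436). Without double positive replicate 5, the library with the highest share at 40.7%, the difference of the means was -0.77 points.

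**Figure D1:**
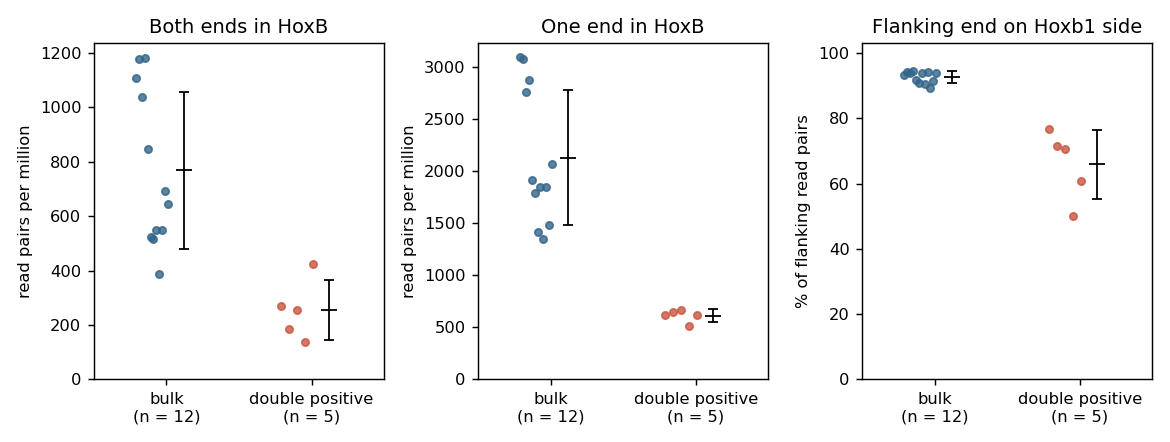
HoxB read pairs of each library, as CPM for loops with both ends in the cluster (left) and with 1 end in it (middle), and as the share of the flanking ends that lay beyond Hoxb1 (right). Points are libraries and the bars show mean ± SD. In the middle and right panels the groups do not overlap, and in the left panel only double positive replicate 5, at 425 CPM, reaches the range of bulk.

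The clearest difference in shape was where the flanking ends lay. DNA beyond Hoxb1 took from 89.4% to 94.6% of the flanking read pairs in bulk, with a median of 93.6%. In the double positive libraries it took 76.7%, 71.4%, 70.6%, 50% and 60.9%. Each double positive library lay below each bulk library, and the means of 92.7% ± 1.76 (SD, n = 12) and 65.9% ± 10.6 (SD, n = 5) differed by 26.8 percentage points (exact permutation test, adjusted p = 0.000431). A share within the cluster's own read pairs does not depend on how libraries are scaled. On shared loops the bulk mean was 94.6% and the double positive mean unchanged at 65.9% (exact permutation p = 0.000162).

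In bulk most of that side was Skap1, a gene for an adaptor protein of T cell signalling whose transcribed unit fills chr11:96325907-96620791 on the plus strand, next to Hoxb1. Flanking ends inside Skap1 held 2379 bulk and 60 double positive read pairs, over 39 anchors of which 10 were shared. They took from 861 to 2084 CPM in bulk with a median of 1235 CPM, and 152, 151, 176, 158 and 116 CPM in the double positive libraries. The groups were far apart. As a share of the flanking read pairs, Skap1 took from 58.4% to 70.1% in bulk and from 18.8% to 30.8% in double positive cells. On shared loops those shares were 74.1% ± 4.77 (SD, n = 12) and 24.8% ± 4.40 (SD, n = 5), and again did not overlap.

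In bulk few of these ends lay at the promoter of Skap1. Anchors within 5 kb of its TSSs held 60 of the 2379 bulk and 11 of the 60 double positive read pairs. Most bulk read pairs thus lay in the body of the gene. The promoter anchors held 37.4 ± 16.9 CPM (SD, n = 12) in bulk and 24.9 ± 17.1 CPM (SD, n = 5) in double positive cells, with overlapping ranges. The most used flanking anchor in bulk was chr11:96436143-96441671 inside Skap1, 209 kb beyond Hoxb1. It was joined to 21 of the 29 cluster anchors, with 380 read pairs in 12 of 12 bulk libraries and 8 read pairs in 4 of 5 double positive libraries. The next 6 anchors by bulk level also lay inside Skap1, between 214 and 374 kb from the cluster.

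By distance, the differences past the test in which double positive cells were lower lay mainly within 500 kb on the side of Hoxb1. At 200 to 500 kb on that side the bulk libraries held from 808 to 2026 CPM with a median of 1136 CPM, and the double positive libraries from 139 to 274 CPM, with means that differed 6.96-fold (exact permutation test, adjusted p = 0.000431 over 8 classes of side and distance). At 50 to 200 kb the fold was 9.37 (exact permutation test, adjusted p = 0.000431), with 18 double positive read pairs in all. Only 2 of the 19 anchors at 50 to 200 kb were shared, and 16 of the 41 at 200 to 500 kb, which limits what double positive libraries could show there. Closer than 50 kb on the side of Hoxb1, bulk held from 36.8 to 196 CPM and no double positive library had a read pair, but none of the 8 anchors there was in the double positive set.

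Farther out, and on the other side, the differences in CPM were smaller or ran the other way. Beyond 500 kb on the side of Hoxb1 the means were 196 ± 45.8 CPM (SD, n = 12) and 182 ± 60.8 CPM (SD, n = 5), and the difference did not pass the test (exact permutation test, adjusted p = 0.609). On the side of Hoxb13, ends at 200 to 500 kb were higher in double positive cells, with 73.6 ± 24.3 CPM (SD, n = 5) against 36 ± 21.3 CPM (SD, n = 12) in bulk (exact permutation test, adjusted p = 0.0101). The ranges overlapped, and on shared loops this turned round, with 119 CPM in bulk and 73.6 CPM in double positive cells (exact permutation test, adjusted p = 0.208). Ends at 50 to 200 kb on the side of Hoxb13, with 65.3 and 73.2 CPM, did not pass the test (exact permutation test, adjusted p = 0.590). Ends under 50 kb on that side had 23 bulk read pairs and 0 double positive ones, with no shared anchor. On shared loops double positive cells lay below bulk in every class that could be compared. The bulk CPM there is taken over 12.3% of the bulk read pairs, which raises it.

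As shares of the flanking read pairs, these far classes were larger in the double positive libraries. Ends over 500 kb beyond Hoxb1 took 29.2% ± 8.29 (SD, n = 5) against 9.52% ± 1.90 (SD, n = 12) in bulk, and those over 500 kb beyond Hoxb13 took 9.75% ± 3.71 (SD, n = 5) against 1.72% ± 1.01 (SD, n = 12) (exact permutation tests, both adjusted p = 0.000215). The median span of HoxB loops, weighted by read pairs, was longer to match. It ran from 241 to 278 kb in bulk with a median of 262 kb, and was 370, 390, 309, 311 and 274 kb in the double positive libraries. Only double positive replicate 5 fell within the range of bulk, and the means differed by 72.4 kb (exact permutation test, adjusted p = 0.000517). The anchor sets also differed by distance. Over 500 kb away, 44 of 91 anchors beyond Hoxb1 and 23 of 45 beyond Hoxb13 were shared. At 50 to 200 kb beyond Hoxb1 2 of 19 were shared, and under 50 kb 0 of 8. How far this makes the larger far shares and the longer span was not tested.

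**Figure D2:**
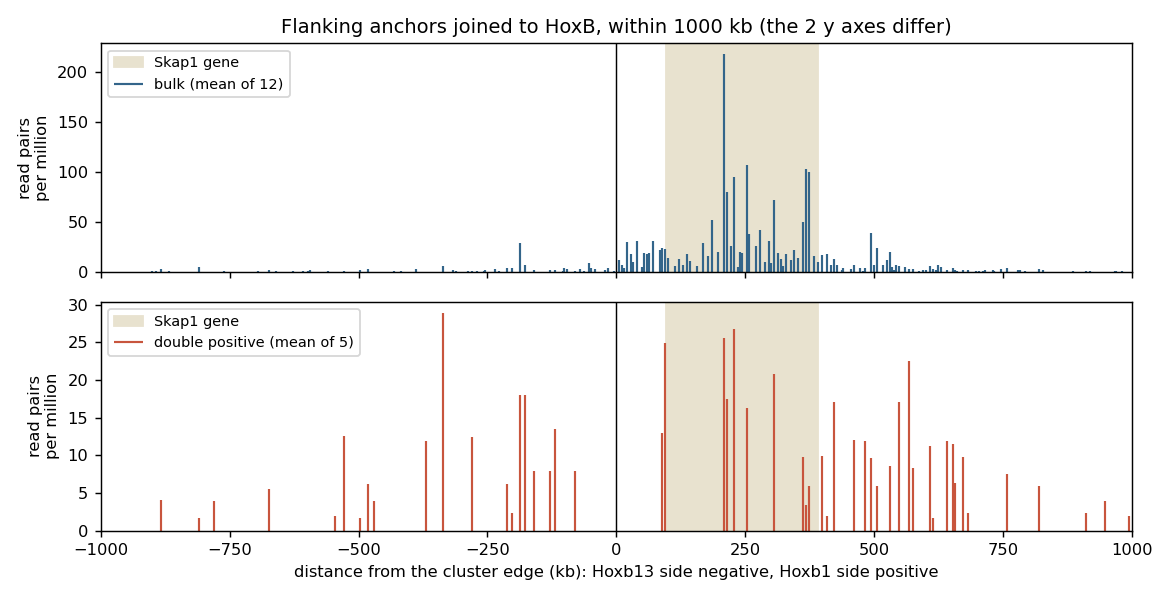
Mean level of each flanking anchor joined to the HoxB cluster, in CPM, against its distance from the nearer edge of the cluster, for bulk (top) and double positive (bottom) libraries, with the Skap1 gene shaded. The 59 anchors beyond 1000 kb are not drawn, and the y axes differ: the tallest bulk line, at 209 kb inside Skap1, is 218 CPM, while the double positive lines are spread over both sides below 30 CPM.

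Named by their TSSs, the flanking genes with most read pairs to the cluster in bulk were Skap1, Igf2bp1, Cbx1, Snx11 and Sp2. Igf2bp1, which encodes an RNA-binding protein, is the only one of them on the side of Hoxb13, and held 47 bulk and 7 double positive read pairs. Cbx1, for the heterochromatin protein HP1 beta, held 41 and 8 read pairs. In double positive cells Skap1, Sp6, Prr15l and Igf2bp1 were among the 5 with most. Sp6, for a zinc finger transcription factor, held 8 double positive and 11 bulk read pairs, and its level was 23.3 ± 31.4 CPM (SD, n = 5) against 5.51 ± 7.20 CPM (SD, n = 12). The ranges overlapped for every gene named here, and they were not tested.

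Along the cluster itself, bulk signal was spread over Hoxb9 to Hoxb1 and was thin near Hoxb13. The anchor with most bulk read pairs, 769, was chr11:96171317-96174399, which lies between Hoxb5 and Hoxb4 and 3.6 kb from the TSS of Hoxb4. Next came the Hoxb2 promoter anchor at chr11:96211678-96217207 with 744 read pairs, the Hoxb5 promoter anchor at chr11:96163905-96166319 with 699, the anchor chr11:96146076-96150797 over the Hoxb7 TSS region with 505, and chr11:96201149-96204051 inside Hoxb3 with 505. In double positive cells the order was different, with the Hoxb4 anchor chr11:96178510-96181468 first (61 read pairs) and the Hoxb9 promoter anchor chr11:96131124-96134933 next (52). The 10 anchors from Hoxb13 to 46.1 kb from its start had between 3 and 26 bulk read pairs each and 0 in double positive cells, and none of them was shared.

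Most cluster anchors were called lower in double positive cells. Of the 19 that passed the filter (20 or more read pairs, spread over 5 or more libraries), 18 were lower and 0 higher (edgeR quasi-likelihood test, adjusted p under 0.05), against 75.5% lower among all 43452 anchors tested, a background that holds the many anchors seen in bulk loops alone. Among the 13 shared anchors, 12 were lower against 26.4% of 14465 shared anchors tested, and 6 had every double positive library below every bulk library against 1.98%. The 6 were the anchor over Hoxb7, the Hoxb6, Hoxb5 and Hoxb2 promoter anchors, the anchor between Hoxb5 and Hoxb4, and the one inside Hoxb3 at chr11:96201149-96204051. Scaled by library size alone, 16 of the 19 were lower and 1 was higher, against 69.4% and 22.7% of all anchors tested. Of the 13 shared ones 10 were lower on that scale, a count without a share over all shared anchors to set beside it. On shared loops 12 of the 13 were lower and 0 higher (edgeR, adjusted p under 0.05), against 15.2% and 32.5% of 12510 anchors tested.

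The Hoxb2 promoter anchor fell most among shared anchors. Bulk held from 237 to 738 CPM with a median of 361 CPM there, and the double positive libraries held 67.7, 93.1, 19.6, 39.6 and 126 CPM. The groups did not overlap (edgeR log2 fold change -4.14 ± 0.35 SE, adjusted p = 4.99e-14). The anchor between Hoxb5 and Hoxb4 ranged from 249 to 719 CPM in bulk and from 69.8 to 161 CPM in double positive cells, again apart (log2 fold change -3.57 ± 0.31 SE, edgeR adjusted p = 1.64e-13).

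The exception was an anchor far from any listed TSS. At chr11:96111868-96114340, inside the annotated gene Gm53 and 18.4 kb from the TSS of Hoxb9, bulk held from 0 to 81.4 CPM with a median of 25.5 CPM, and double positive cells from 58.8 to 128 CPM with a mean of 94.7 ± 26.5 CPM (SD, n = 5). Its level was higher in double positive cells by CPM, with overlapping ranges, while the edgeR fit with TMM factors gave a log2 fold change of 0.17 ± 0.41 SE (edgeR adjusted p = 0.702) and library size alone gave 1.81 (edgeR adjusted p = 0.000122). So its direction depended on the scale, and on shared loops it was -0.30 (edgeR adjusted p = 0.563). Loop ends with no listed TSS within 5 kb took 4.06% ± 1.40 (SD, n = 12) of the ends in the cluster in bulk and 8.70% ± 2.83 (SD, n = 5) in double positive cells (exact permutation test, adjusted p = 0.00323). On shared loops, where this anchor is the only such one, the shares were 1.03% and 8.70% and did not overlap.

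The middle 300 bases of this anchor and of the one between Hoxb5 and Hoxb4 are shown because the results contrast them, with CG in capitals (mm9, plus strand):
Gm53 anchor, chr11:96112954-96113253: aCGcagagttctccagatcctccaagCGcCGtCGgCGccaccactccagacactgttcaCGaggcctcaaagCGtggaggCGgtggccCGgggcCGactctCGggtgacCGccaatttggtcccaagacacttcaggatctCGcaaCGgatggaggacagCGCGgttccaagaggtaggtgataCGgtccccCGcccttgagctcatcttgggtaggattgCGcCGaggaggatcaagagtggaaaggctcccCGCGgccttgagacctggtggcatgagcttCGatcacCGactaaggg
anchor between Hoxb5 and Hoxb4, chr11:96172708-96173007: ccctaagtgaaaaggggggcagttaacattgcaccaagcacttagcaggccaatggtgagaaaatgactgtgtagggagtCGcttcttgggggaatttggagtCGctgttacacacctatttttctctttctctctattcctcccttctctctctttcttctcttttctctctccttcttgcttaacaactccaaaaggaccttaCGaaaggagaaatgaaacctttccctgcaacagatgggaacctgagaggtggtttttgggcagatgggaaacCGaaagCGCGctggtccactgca
They held 24 and 6 CG. The median over the middle 300 bases of all 216081 anchors was 3, that over the 15074 anchors of both sets was 9, and 24.1% of the latter had as many as the Gm53 anchor or more. Within the cluster the median was 14 over the 13 shared anchors and 5 over the 16 in bulk loops alone.

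By position, the ends near Hoxb1 to Hoxb4 took 56.9% ± 3.19 (SD, n = 12) in bulk and 49.5% ± 5.78 (SD, n = 5) in double positive cells (exact permutation test, adjusted p = 0.00937). Those near Hoxb5 to Hoxb9 took 38.5% and 41.8%, a difference that did not pass the test (exact permutation test, adjusted p = 0.161). Both depended on the anchor set. On shared loops the ends near Hoxb1 to Hoxb4 took 51.6% and 49.5% (exact permutation test, adjusted p = 0.352), and those near Hoxb5 to Hoxb9 took 47.3% and 41.8% (exact permutation test, adjusted p = 0.0407), so the second difference turned round.

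**Figure D3:**
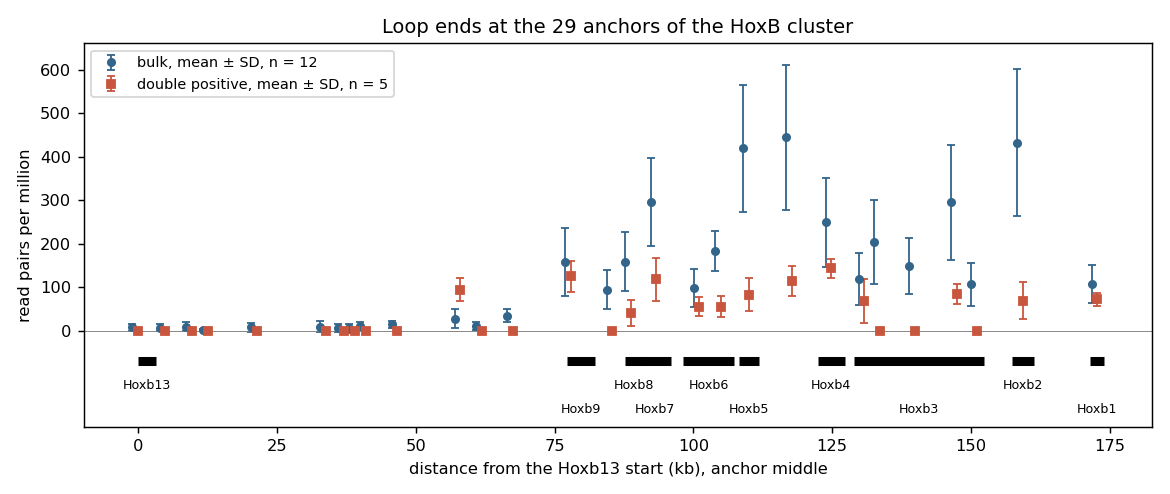
Level in CPM of loops with an end in each of the 29 anchors of the cluster, against the distance of the anchor's middle from the start of Hoxb13 in kb. Circles (bulk, n = 12) and squares (double positive, n = 5) are means with SD, and black bars are the genes. The double positive squares lie at 0 for the 16 anchors of bulk loops alone, and above the bulk circle only at the Gm53 anchor 57.5 kb from Hoxb13.

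Gene by gene, the read pairs of loops ending near the TSS were summed. In the edgeR fit over 13712 protein-coding genes with TMM factors, 10 of the 10 HoxB genes were called lower in double positive cells and 0 higher, against 40.9% lower and 19.9% higher among all genes tested. Their median log2 fold change was -3.59 (-3.53 with Hoxb13, which had no double positive read pair, at its bound) and that of all genes -0.44. TMM factors lay between 2.41 and 2.64 in double positive and between 0.555 and 0.789 in bulk libraries, so these fold changes are about 1.89 log2 units lower than CPM ratios. With library size alone, which is the CPM scale, the median over all genes moved to 1.38, and 8 of the 10 were called lower and 0 higher, against 24.1% and 58.2% of genes. In CPM, 7 of the 10 had every double positive library below every bulk library, against 7.18% of genes. Neighbouring genes shared anchors, so the 10 values are not independent: Hoxb7 and Hoxb8 had the same 3 anchors and equal values, and Hoxb5 and Hoxb6 shared 2.

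At the anterior end, Hoxb1, an early RA-induced gene of the hindbrain, differed least but for Hoxb9. Bulk held from 57.7 to 209 CPM with a median of 92.6 CPM, and the double positive libraries held 76.2, 69.8, 58.8, 59.4 and 96.6 CPM. The ranges overlapped, and 4 of the 5 double positive values lay below the bulk median (edgeR log2 fold change -2.38 ± 0.30 SE, adjusted p = 2.04e-08). With library size alone the log2 fold change was -0.56 and the call was lost (edgeR adjusted p = 0.126).

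Hoxb2, which patterns the hindbrain and its motor neurons, differed most among the genes seen in both groups. Bulk held from 237 to 738 CPM with a median of 361 CPM, and the double positive libraries held 67.7, 93.1, 19.6, 39.6 and 126 CPM. Its groups did not overlap (edgeR log2 fold change -4.32 ± 0.31 SE, adjusted p = 2.49e-14, and -2.51 with library size alone). Only 1 anchor, shared by both groups, lay in its window.

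Hoxb3, a gene of the hindbrain and neck, has 3 annotated TSSs and 6 anchors. It ranged from 552 to 1625 CPM with a median of 855 CPM in bulk, and was 271, 186, 294, 238 and 328 CPM in the double positive libraries. No double positive library reached the lowest bulk one (edgeR log2 fold change -3.81 ± 0.24 SE, adjusted p = 1.72e-15). Of its 6 anchors 3 were in bulk loops alone, and on shared loops its log2 fold change was -3.78.

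Hoxb4, a factor known from blood stem cells and the hindbrain, ranged from 380 to 1042 CPM in bulk with a median of 600 CPM. Its double positive libraries held 305, 198, 216, 238 and 251 CPM. These lay below all bulk libraries and close together (edgeR log2 fold change -3.30 ± 0.24 SE, adjusted p = 5.46e-14).

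Hoxb5, a gene of the trunk and lung, ranged from 315 to 827 CPM in bulk with a median of 561 CPM. In double positive cells it held 144, 163, 176, 39.6 and 155 CPM. Replicate 4, with 2 read pairs, stood below the other 4 libraries, and all 5 lay below bulk (edgeR log2 fold change -3.88 ± 0.25 SE, adjusted p = 1.94e-15). Hoxb6, its neighbour, ranged from 558 to 1300 CPM in bulk and from 139 to 372 CPM in double positive cells, also apart (edgeR log2 fold change -3.47 ± 0.23 SE, adjusted p = 2.50e-15).

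Hoxb7 and Hoxb8, genes of the trunk, ranged from 315 to 850 CPM in bulk with a median of 484 CPM. The double positive libraries held 152, 116, 255, 59.4 and 212 CPM. The ranges did not meet (edgeR log2 fold change -3.59 ± 0.26 SE, adjusted p = 5.81e-14).

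Toward the posterior end, Hoxb9 differed least of the 10. Bulk held from 46.2 to 294 CPM with a median of 144 CPM, and the double positive libraries held 102, 105, 137, 99 and 183 CPM, inside the range of bulk. The edgeR log2 fold change was -2.20 ± 0.31 SE (adjusted p = 2.47e-07), and with library size alone it was -0.36 and not called (edgeR adjusted p = 0.316). Hoxb13, the most posterior gene and set apart from the rest, held 34 read pairs over the 12 bulk libraries, from 0 to 39.4 CPM, and 0 in the double positive libraries. Against a floor of 3 read pairs over the double positive group its CPM was at least 2.87-fold lower, but none of its 3 anchors was in the double positive set.

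On shared loops 9 genes could be tested, all without Hoxb13, and 9 were called lower and 0 higher, against 11% and 21.6% of 9749 genes, with a median log2 fold change of -4.20 against 0.34 for all genes. Whether genes differed from each other in their fold changes was not tested.

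**Figure D4:**
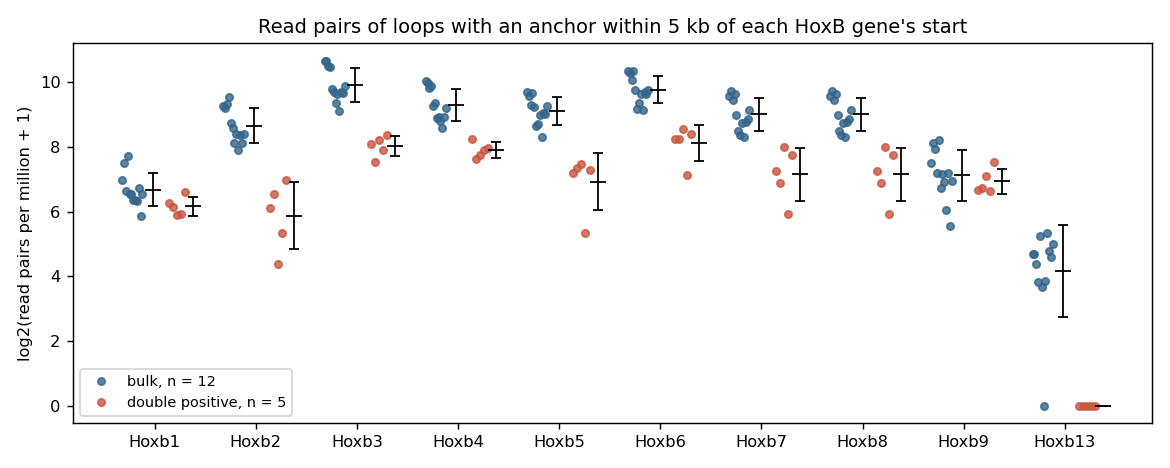
Level in CPM of loops ending within 5 kb of a TSS of each HoxB gene, on the log2(value + 1) scale, per library, with mean ± SD. Hoxb2 to Hoxb8 are apart between the groups, Hoxb1 and Hoxb9 overlap, and Hoxb13 is at 0 in the 5 double positive libraries.

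Single loops carried few read pairs. Of the 1491 HoxB loops, 1387 had a bulk read pair and 249 a double positive one, and 145 had both. Between 63.3% and 87.4% of the HoxB loops of a bulk library, and between 86.8% and 93.5% of a double positive one, had 1 read pair. Thinned by calculation to the smallest library total of 50508 read pairs, from 82.5 to 175 HoxB loops would be seen in bulk and from 31.0 to 48.6 in double positive cells (exact permutation test, adjusted p = 0.000431). The number of cluster anchors in use, 21.0 ± 1.12 (SD, n = 12) and 12.5 ± 0.531 (SD, n = 5) at that depth, was 12.4 and 12.5 on shared loops (exact permutation p = 0.505), where nearly all of the 13 shared anchors were in use in both groups and little room was left to differ. Over whole libraries, too, double positive cells listed fewer different loops at like depth. Bulk replicate 1 listed 110739 loops from 120902 read pairs, and double positive replicate 1 listed 57545 from 118179. The part of this in the lower number of HoxB loops was not tested.

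The 5 strongest inside loops of bulk joined near neighbours, and the strongest joined the Hoxb5 promoter anchor to the anchor between Hoxb5 and Hoxb4, 7.75 kb away. It ranged from 19.7 to 105 CPM in bulk with a median of 40.8 CPM, and held at most 19.6 CPM in a double positive library, with 5 read pairs in 3 of the 5 libraries. The groups lay apart (edgeR log2 fold change -3.94 ± 0.52 SE, adjusted p = 1.58e-12). The others joined the anchor between Hoxb5 and Hoxb4 to the Hoxb4 anchor (52 bulk and 8 double positive read pairs), the Hoxb6 and Hoxb5 promoter anchors (43 and 1), the Hoxb3 and Hoxb2 anchors (42 and 5) and the Hoxb7 and Hoxb5 anchors (34 and 4).

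Double positive cells shared 3 of those 5 loops among their own strongest. The other 2 were the loop from the Hoxb4 anchor to the Hoxb3 anchor chr11:96184631-96187121, with 8 read pairs in each group, and the loop from the Hoxb9 to the Hoxb7 anchor, with 5 double positive and 20 bulk read pairs. The Hoxb4 to Hoxb3 loop was at 19.0 CPM in double positive cells and 5.10 CPM in bulk, with overlapping ranges, and was below the filter for a test. The Hoxb9 to Hoxb7 loop was called lower with TMM factors (edgeR log2 fold change -2.10 ± 0.64 SE, adjusted p = 0.00237) and stood at 0.01 with library size alone.

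Out of the cluster, the 5 strongest bulk loops all ended inside Skap1. The loop from the anchor between Hoxb5 and Hoxb4 to chr11:96436143-96441671 spans 266 kb and ranged from 11.6 to 82.7 CPM in bulk, with 63 read pairs in 12 of 12 libraries. No double positive library had a read pair of it, though both anchors are in the double positive set, so its CPM was at least 5.32-fold lower against a floor of 3 read pairs over the group. From the Hoxb2 anchor to the same Skap1 anchor, 224 kb away, bulk had 55 read pairs and double positive cells 0, at least 4.64-fold lower. Hoxb5 (37 and 1 read pairs) and Hoxb3 (31 and 2) were joined to that anchor too, and Hoxb5 was joined to chr11:96480870-96485064 (28 and 0).

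The strongest flanking loops of double positive cells had 2 or 3 read pairs each. The first joined the Hoxb7 anchor to chr11:96456410-96458815 in Skap1 (3 read pairs, and 17 in bulk). Of the other 4, 3 were not seen in bulk. They joined the Gm53 anchor to the Phospho1 and to the Srcin1 promoter, and the Hoxb3 anchor to the Atp5g1 promoter, with 2 read pairs each. Both loops of the Gm53 anchor were seen in double positive replicate 4 alone, the smallest library at 50508 read pairs. The loop to Atp5g1 was seen in 2 libraries. With so few read pairs these loops cannot be ranked.

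In all, 41 HoxB loops passed the filter for a test, 20 of them inside, and 41 were called lower in double positive cells against 22.3% of the 5369 loops tested. A HoxB loop passes that filter mainly through bulk, where it is high, and 19 of the 41 had no double positive read pair, so this count is a description only. Their log2 fold changes ran from -6.10 to -2.10, and the median of all loops tested was 0.80. With library size alone 28 of the 41 were lower and 0 higher, against 13.8% and 76.9% of loops.

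The other Hox clusters gave a scale for HoxB within the same libraries. HoxA, on chromosome 6, held 1428 ± 688 CPM (SD, n = 12) in bulk and 2288 ± 302 CPM (SD, n = 5) in double positive cells. HoxC, on chromosome 15, held 1472 ± 571 CPM (SD, n = 12) and 1205 ± 139 CPM (SD, n = 5), and both clusters overlapped between groups. HoxD, on chromosome 2, held 879 ± 291 CPM (SD, n = 12) and 310 ± 60.9 CPM (SD, n = 5), without overlap, like HoxB.

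HoxB thus took a smaller part of the read pairs of the 4 clusters. Its share ran from 32.5% to 48.9% in bulk with a median of 44.3%, and was 20%, 18.3%, 17%, 16.3% and 21.3% in the double positive libraries. The groups were far apart (exact permutation p = 0.000162, a test added after the values were seen). The lowest bulk share was that of replicate 8, in which HoxA was highest of the bulk libraries at 2765 CPM. These shares use all loops, and the clusters differ in their anchors. In HoxB 13 of 29 anchors were shared, in HoxA 13 of 17, in HoxC 10 of 18 and in HoxD 10 of 15. How far this makes the smaller HoxB share was not tested.

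**Figure D5:**
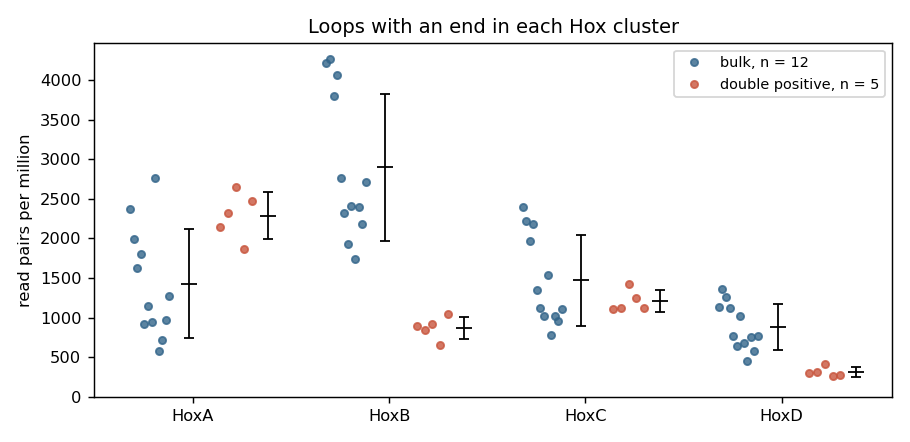
Level in CPM of loops with an end in each of the 4 Hox clusters, per library, with mean ± SD. HoxB and HoxD are apart between bulk and double positive libraries, while HoxA and HoxC overlap.

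The 3 genes on other chromosomes whose level was most like that of the HoxB cluster over the 17 libraries were Pdzrn4 (Pearson r 0.975 of log2(CPM + 1)), Hoxd3 (0.972) and Fbxl7 (0.958), of 12457 genes compared. Within the 12 bulk libraries r was 0.932, 0.917 and 0.812. Pdzrn4 and Fbxl7 had no read pair in double positive cells, where none of their anchors was in the anchor set, and at most 74.6 and 66.2 CPM in bulk. The points share libraries and depths and fall into the 2 groups, so the values over all 17 mix the difference between groups with the spread inside them.

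The counts of other lists are read against all genes tested, of which 40.9% were lower and 19.9% higher with TMM factors, and 24.1% and 58.2% with library size alone. Of 28 Hox genes tested in the other 3 clusters, 19 (67.9%) were lower and 3 (10.7%) higher (edgeR, TMM factors), with a median log2 fold change of -1.28. Among those with read pairs in both groups the lowest were Hoxd3 (-3.75), Hoxd4 (-3.46), Hoxc5 (-3.05) and Hoxc4 (-3.03), and Hoxc9, Hoxd10 and Hoxd11 had no double positive read pair and no anchor in the double positive set. The 3 higher genes were Hoxc11, Hoxc12 and Hoxc13 (1.47, 1.52 and 2.0). With library size alone 8 (28.6%) were lower and 14 (50%) higher, and Hoxa5 went from -1.25 to 0.61, so these directions depended on the scale.

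Of the 9 TALE cofactors tested, 7 (77.8%) were lower and 1 (11.1%) higher with TMM factors, against 40.9% and 19.9% of all genes. Meis2, for a DNA-binding partner of HOX proteins, was lower on both scales (log2 fold change -3.04, and -1.17 with library size alone). Pbx4 was higher (1.08). Scaled by library size alone, 2 (22.2%) of the 9 were lower, near the 24.1% of all genes, and 2 higher. Of 18 genes of the RA pathway and of CDX factors tested, 8 (44.4%) were lower and 3 (16.7%) higher, shares near those of all genes. Rarb, the RA receptor gene that RA induces, had 346 bulk and 0 double positive read pairs, but none of its 4 anchors was in the double positive set. Stra6, for the retinol transporter, was at 2.07 (edgeR adjusted p = 1.55e-12). By library size alone 4 (22.2%) were lower and 9 (50%) higher, again near all genes. Of 12 Polycomb and Trithorax genes tested, 6 (50%) were lower and 2 (16.7%) higher, with Jarid2 at -3.58 and Ring1 at 1.59. With library size alone 3 (25.0%) were lower and 6 (50%) higher, and on both scales these shares lay near those of all genes. The medians of these 3 lists were -1.23, -0.58 and -0.74, beside -0.44 for all genes, and placing genes with no double positive read pair at their bound did not move them.

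Markers of cell types were counted in the same way. Of 10 neural genes tested, 8 were lower and 0 higher with TMM factors, against 40.9% and 19.9% of all genes. On the scale of library size 6 were lower and 2 higher, against 24.1% and 58.2%, as Nkx6-1 and Neurog1 lost their calls and Tubb3 (1.21, edgeR adjusted p = 0.00158) and Olig2 (1.92, edgeR adjusted p = 0.00541) were higher. The neural genes had a summed level from 611 to 1255 CPM in bulk and from 235 to 483 CPM in double positive cells and none at 0. Of 14 endoderm genes tested, 7 were higher and 3 lower with TMM factors, against 19.9% and 40.9% of all genes, and 11 were higher and 2 lower with library size alone, against 58.2% and 24.1%. Their sums ran from 471 to 747 CPM in bulk and from 4265 to 5485 CPM in double positive cells, and Hnf4a was among those at 0 in the latter. Col4a1 and Col4a2 had equal double positive levels, with 256 read pairs each. They are therefore not independent, though both are in the sums and among the genes called higher. Of 5 pluripotency genes tested, 3 (60%) were higher and 2 (40%) lower on both scales. This is against 19.9% and 40.9% of all genes with TMM factors, and 58.2% and 24.1% with library size alone. Their sums ran from 131 to 279 CPM in bulk and from 416 to 745 CPM in double positive cells, where Nanog, Esrrb and Dppa5a were at 0. Of Hnf4a, Nanog, Esrrb and Dppa5a no anchor was in the double positive set, so a lower level there and the lack of an anchor cannot be told apart. Of 2 blood and endothelial genes tested 1 was lower and 0 higher (1 and 1 with library size alone), with sums from 30.7 to 92.3 and from 39.2 to 69.8 CPM, and of 3 mesoderm genes tested 1 was lower and 0 higher (1 and 1 with library size alone), with sums from 190 to 431 and from 686 to 960 CPM. With 2 and 3 genes tested, these counts are too small to set against the shares of all genes. Tbx6 made most of the mesoderm sums, mean 231 of 281 CPM in bulk and 782 of 814 CPM in double positive cells. Its log2 fold change was -0.12 with TMM factors (edgeR adjusted p = 0.611) and 1.75 with library size alone. T, Mesp1, Hand1, Pecam1, Cdh5 and Kdr had no double positive read pair and no anchor in the double positive set. Epcam and Cd38, the genes of the sort, summed to between 0 and 69.8 CPM in bulk and to between 93.1 and 262 CPM in double positive cells, and neither passed the test with TMM factors, while both were higher with library size alone (Cd38 2.38, edgeR adjusted p = 3.79e-06, and Epcam 2.75, edgeR adjusted p = 2.58e-05). The part of cell type makeup in the HoxB values was not tested.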

How the data were processed

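H3K27ac HiChIP was performed on 12 bulk and 5 EpCAM/CD38 double positive libraries of EBs at RA-day 4. The authors aligned reads to mm9 and called loops with HiC-Pro and hichipper, and the deposited files list for each library pairs of anchors with counts of read pairs, raw and without normalization; only pairs with at least 1 are listed. Overlapping anchors of all libraries were joined, which dropped 700 read pairs with both ends in 1 joined anchor. Counts were summed per gene (anchors within 5 kb of a TSS), per anchor and per loop, and features with 20 or more read pairs, spread over 5 or more libraries, were tested with edgeR 4.0.16 (quasi-likelihood, TMM factors, Benjamini-Hochberg adjustment over all features, threshold 0.05). Log2 fold changes were taken as double positive over bulk. Single values were compared by two-sided exact permutation tests. Library totals ran from 50508 to 241202 read pairs, and intervals, floors (3 read pairs) and depths cover counting error only, since read pairs are not independent molecules. Members and lists were chosen with earlier results of these data known. Named items were the 10 members, the 5 strongest anchors, inside loops, flanking loops and flanking genes of each group, the 3 genes most like the cluster, and the pathway and marker lists. Skap1 as a whole, the Gm53 anchor and genes picked out within lists were described after their values were seen. Alternatives were library size alone, loops with both anchors in the loops of both groups, DESeq2 1.42.0, other filters and windows, and each library left out in turn. The fits were tested on simulated data. Peaks behind each anchor set are not given in the sources used here. Some genes of the lists are not reported here by name.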

Additional observations from a re-analysis of the deposited data

Results flagged for a closer look

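Among the double positive libraries, Hoxb5 in replicate 4 lay far from the others, at 39.6 CPM (2 read pairs) against 144 to 176 CPM. Its gap to the next library was 0.762 of the whole range, above the limit of 0.71 for 5 libraries. Of 18 groups examined in this way 1 passed its limit, and chance passes about 1 in 20.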

How the results depend on the processing

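All 10 HoxB genes stayed lower with each library left out, and 8 of 10 were called with library size alone, where Hoxb1 (-0.56) and Hoxb9 (-0.36) were not. The log2 ratio of all HoxB read pairs was -1.74, and lay between -3.85 and -1.41 under other scalings and sample sets. On shared loops the share inside the cluster turned round (-5.60 points), as did anchors in use (log2 ratio 0.0182) and ends on the side of Hoxb13 at 50 to 200 kb (-128 CPM), 200 to 500 kb (-45.2) and over 500 kb (-66.5). These CPM values are taken over the read pairs of shared loops, which raises those of bulk. On that scale ends over 500 kb beyond Hoxb1 became lower past the threshold (-641). On shared loops, ends near Hoxb1 to Hoxb4 lost their call (-2.13 points) and ends near Hoxb5 to Hoxb9 turned round (-5.54). With bulk replicates 5 to 12 alone, ends over 500 kb beyond Hoxb1 turned round (8.54 CPM). In that setting 4 of 4 HoxB loops tested were called lower, against 7.24% of 3548 loops.

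With 1 library left out, the share inside ran from -0.77 to 4.12 points (-0.766 without double positive replicate 5), ends over 500 kb beyond Hoxb1 from -26.6 to 11.8 CPM (11.8 without double positive replicate 4), and ends over 500 kb beyond Hoxb13 from 17.2 to 27.2 CPM, past the threshold without bulk replicate 1 or 6 or double positive replicate 3. Ends near Hoxb5 to Hoxb9 ran from 1.19 to 5.56 points, past the threshold without double positive replicate 4. Ends near Hoxb13 ran from -0.52 to -0.38 points, and lost their call without bulk replicate 11 or any of double positive replicates 1, 2, 3 and 5. HoxB loops called ran from 23 to 41. Without bulk replicates 1, 2 and 3 they were 27, 23 and 24, where 20.5%, 17.8% and 18.6% of all loops tested were lower. A minimum of 50 read pairs left 4 to test, and 4 were called lower, against 22.9% of 850 loops. Testing 1491 loops without a minimum left 1 call, against 44 lower among 1211657 loops. Fewer loops tested make these counts smaller, and the cause of the other changes was not tested.

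No pairing of libraries by replicate number was seen (correlations of deviations from -0.0132 to 0.0104), but counts this sparse cannot exclude it. With the replicate block 13 of 13 HoxB loops tested were called lower, against 10.8% of 3985 loops. In replicates 1 to 5 without the block 13 of 13 were called lower, against 12.2%. HoxB loops pass the filter mainly through bulk, so these counts are a description only. Depth limited single loops, most of which held 1 read pair, and the smaller double positive anchor set limited what could be seen at the other anchors.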
